A study of Mus musculus with 6 samples.

Results

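The 10 genes described here encode secreted plasma proteins of the acute phase response: the orosomucoids Orm1, Orm2 and Orm3, lipocalin 2 (Lcn2), haptoglobin (Hp), hemopexin (Hpx), ceruloplasmin (Cp), lipopolysaccharide binding protein (Lbp) and the inter-alpha-trypsin inhibitor heavy chains Itih3 and Itih4. They were measured in 6 mouse livers among 22180 genes. They were chosen by symbol, with earlier results of these arrays known, from the same contrast of Sonic Hedgehog (SHH) against green fluorescent protein (GFP) livers that is given below. Their values in that contrast are therefore a description and were not tested. All 10 were measured, each by 1 probe set naming that gene alone, and no filter on level was applied.

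The livers came from male C57BL/6 mice kept free of specified pathogens, with no further treatment per the labels. A group of 3 livers expressed GFP (mice 13, 21 and 6) and a group of 3 expressed SHH, the secreted ligand of the Hedgehog pathway (mice 26, 28 and 31). The genes were brought in by hydrodynamic transfection, the fast injection of DNA in a large volume, which mainly reaches hepatocytes. GFP livers are thus the control for that procedure, and no untransfected liver was analysed here. The sources used here do not give the age of the mice, the time after injection, or the promoter that drove SHH or GFP. The study asked how SHH in the liver bears on fibrosis and the genes tied to it.

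In the acute phase response, cytokines such as IL-6 and IL-1 reach the hepatocyte and act through the transcription factors STAT3, C/EBP and NF-kB, and secretion of a set of plasma proteins changes. Several of these proteins bind and carry small or harmful molecules. Haptoglobin binds haemoglobin set free from red cells, hemopexin binds haem, ceruloplasmin carries copper and oxidises iron, and lipocalin 2 binds the siderophores with which bacteria take up iron. The orosomucoids bind drugs and lipids, Lbp hands lipopolysaccharide to its receptor complex, and heavy chains of the inter-alpha-trypsin inhibitor family can be joined to hyaluronan in the matrix.

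Values of the livers are always given in the order of mice 13, 21 and 6 for GFP and of mice 26, 28 and 31 for SHH, and a liver is called by its group and mouse number. All 10 genes had a higher mean signal in SHH than in GFP livers, from 1.36-fold for Cp to 12.02-fold for Lcn2. These folds depended on which mice entered the mean. With 1 mouse left out, the difference of each gene was smallest without SHH 28. It was largest without SHH 26 in all but Cp. In proportion to its size, the difference of Lbp fell most, from 0.98 to 0.55 without SHH 28. That of Orm3 rose most, from 1.90 to 2.85 without SHH 26. The size differed widely among the 10 genes. Lcn2, Orm2 and Orm3 differed by 3.59, 3.23 and 1.90 on the log2 scale and ranked 2, 5 and 9 among all 22180 genes by that difference. Itih3 and Lbp followed at 1.26 and 0.98, and the other 5 lay between 0.44 and 0.64. The median difference of the 10 was 0.81, against -0.03 over all genes, and became 0.52 without SHH 28 and 1.08 without SHH 26. Of all genes, 43.8% had a higher mean in SHH livers.

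**Figure D1:**
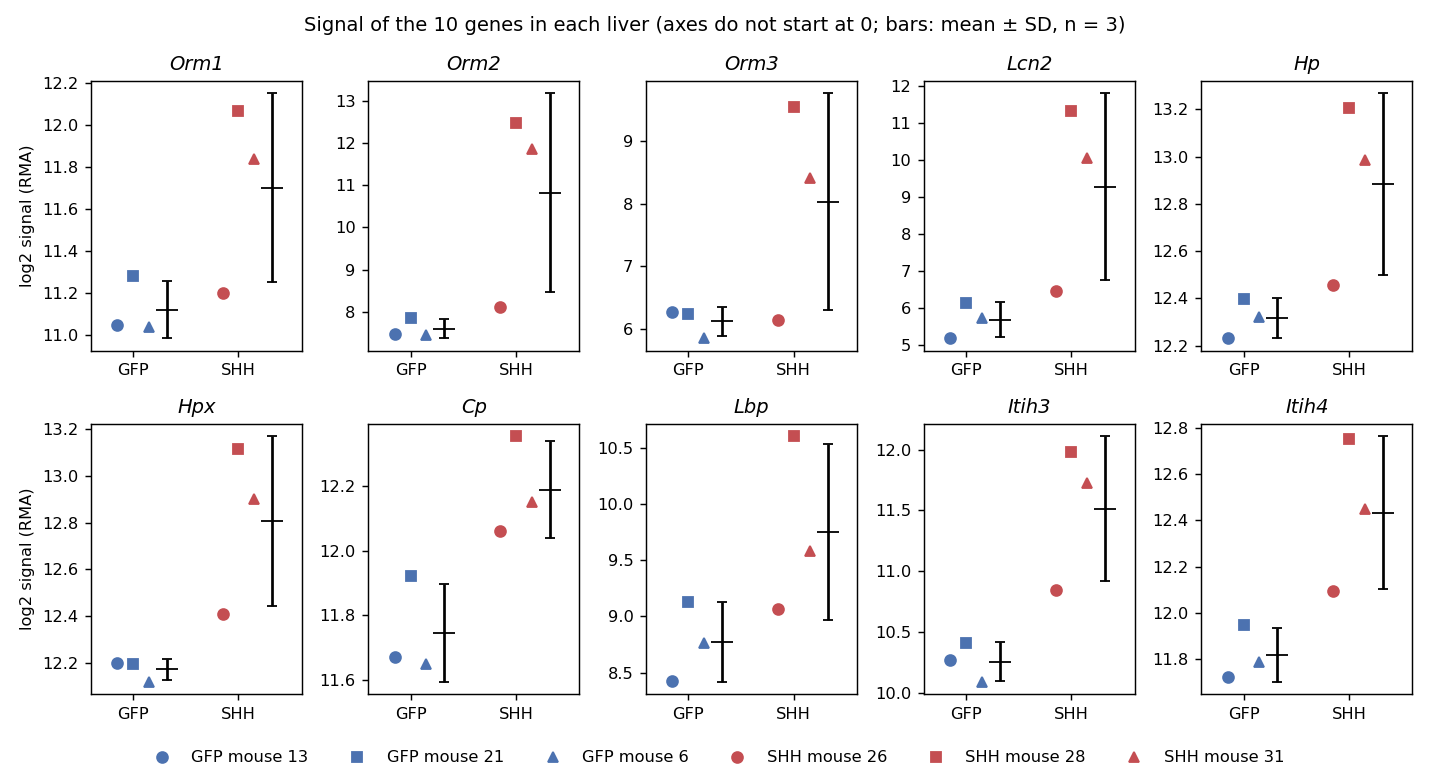
Each panel plots the log2 signal (RMA, no further unit) of 1 gene in the 3 GFP livers (blue) and the 3 SHH livers (red), with mean ± SD over 3 livers in black; axes differ between panels and do not start at 0. SHH mouse 28 is the highest and SHH mouse 26 the lowest SHH liver in all 10 panels, and in the Orm1, Orm3 and Lbp panels SHH mouse 26 lies within the range of the GFP livers.

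In 7 of the 10 genes every SHH liver lay above every GFP liver, and in 0 every SHH liver lay below. Over all genes, 5.26% were higher and 7.25% lower in this sense. The 7 were Orm2, Lcn2, Hp, Hpx, Cp, Itih3 and Itih4. Taken liver by liver, SHH 28 and SHH 31 exceeded every GFP liver for 10 of the 10 genes, where 25.4% and 26.0% of all genes did so. SHH 26 exceeded every GFP liver for the same 7 genes, where 20.6% of all genes did so. Since the genes were chosen from this contrast, nothing is read from these counts. Without GFP 21, the count of 7 became 9, and without SHH 26 it became 10. Leaving a liver out can only keep or raise this count.

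No gene passed over all 22180 genes (limma, Benjamini-Hochberg threshold 0.05): 0 were called higher and 0 lower, which is 0% of the genes tested. At an unadjusted p under 0.05 there were 738 with a higher and 889 with a lower mean, or 882 and 677 with array medians made equal. Without SHH 26, limma called 30 genes higher and 16 lower. An exact permutation test of 3 livers against 3 cannot go below p = 0.1. Array medians lay between 4.32 and 4.40. Pearson correlations of arrays within the GFP group (0.975 to 0.980) and within the SHH group (0.976 to 0.979) overlapped those across the groups (0.971 to 0.981). Nothing in the labels says that the mice differ in litter, day or scan.

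The 3 orosomucoid genes, which encode alpha-1-acid glycoproteins, lie next to each other on chromosome 4 in the order Orm1, Orm3, Orm2, with no other protein-coding gene between them in the RefSeq table of GRCm38.p6. The sequence before Orm2 and Orm3 is shown because these neighbours were both far higher in SHH 28 and SHH 31. Both stretches are from RefSeq, build GRCm38.p6, plus strand, and run from 250 to 91 bases before the start site, at chr4:63362199-63362358 for Orm2 and chr4:63355908-63356067 for Orm3. Capitals mark a match to the C/EBP motif TTGCNNAA:
Orm2: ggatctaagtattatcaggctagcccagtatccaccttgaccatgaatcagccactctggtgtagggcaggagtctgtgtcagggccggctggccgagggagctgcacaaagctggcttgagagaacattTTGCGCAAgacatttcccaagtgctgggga
Orm3: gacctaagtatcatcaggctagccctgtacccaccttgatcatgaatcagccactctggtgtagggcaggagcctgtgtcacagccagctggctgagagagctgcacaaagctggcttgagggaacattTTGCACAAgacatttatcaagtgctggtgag

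Over the 250 bases before each start, the Orm2 and Orm3 sequences were 85.5% identical in a global alignment, with 218 identical positions, 27 mismatches and 10 gap positions. The next most alike pair among the genes with a sequence, Lcn2 and Orm3, was 50.5% identical. The match was TTGCGCAA in Orm2, 120 bases before the start, and TTGCACAA in Orm3, 121 bases before it. The orosomucoid transcripts are close relatives, so probes for each may pick up the others, and the values of these 3 genes are uncertain to that extent.

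Orm2 had log2 signals of 7.47, 7.86 and 7.45 in the GFP livers, against 8.11, 12.49 and 11.86 in the SHH livers. The groups did not overlap, but SHH 26 stood only 0.26 above GFP 21, while SHH 28 and SHH 31 stood over 4 log2 units above the GFP mean. Means were 7.59 ± 0.23 (SD, n = 3) and 10.82 ± 2.37 (SD, n = 3), a 9.39-fold difference. SHH 26 stood 1.44-fold, SHH 28 29.9-fold and SHH 31 19.3-fold above the GFP mean. The log2 difference of 3.23 became 4.59 without SHH 26 and 2.40 without SHH 28.

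Orm3 gave 6.28, 6.24 and 5.85 in the GFP livers, against 6.15, 9.54 and 8.41 in the SHH livers. Here the groups overlapped, because SHH 26 lay below GFP 13 and GFP 21. The mean went from 6.13 ± 0.24 (SD, n = 3) to 8.03 ± 1.73 (SD, n = 3), 3.74-fold higher. SHH 26 was 1.01-fold of the GFP mean, SHH 28 10.6-fold and SHH 31 4.86-fold. The difference of 1.90 became 2.85 without SHH 26 and 1.15 without SHH 28.

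Orm1 differed far less than its neighbours. It gave 11.05, 11.28 and 11.04 in the GFP livers, against 11.20, 12.06 and 11.84 in the SHH livers. SHH 26 lay below GFP 21, so the groups overlapped. The means of 11.12 ± 0.14 (SD, n = 3) and 11.70 ± 0.45 (SD, n = 3) differed by 0.58, or 1.49-fold. In SHH 28 the 3 paralogs thus stood 1.92-fold (Orm1), 10.6-fold (Orm3) and 29.9-fold (Orm2) above their GFP means.

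Lipocalin 2, which withholds iron from bacteria and is made by both hepatocytes and neutrophils, had the largest difference of the 10. The RefSeq sequence before its start is shown because this gene differed most between livers. It is from GRCm38.p6, minus strand, chr2:32387740-32387989, and covers the 250 bases before the start. Capitals mark a C/EBP match, TTGCTCAA, 216 bases before the start and an NF-kB match, GGACTACCCC, 102 bases before it:
Lcn2: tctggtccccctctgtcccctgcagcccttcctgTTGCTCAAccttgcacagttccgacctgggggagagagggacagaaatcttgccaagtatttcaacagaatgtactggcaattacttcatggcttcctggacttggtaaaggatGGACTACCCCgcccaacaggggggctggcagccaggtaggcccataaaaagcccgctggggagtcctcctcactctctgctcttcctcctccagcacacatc

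Lcn2 signals were 5.19, 6.13 and 5.75 in the GFP livers, against 6.47, 11.31 and 10.06 in the SHH livers. SHH 26 lay 0.33 above GFP 21, a smaller step than the 0.94 that separated the lowest from the highest GFP liver. The mean was 5.69 ± 0.47 (SD, n = 3) in GFP and 9.28 ± 2.51 (SD, n = 3) in SHH livers. Against the GFP mean, SHH 26 was 1.71-fold, SHH 28 49.2-fold and SHH 31 20.6-fold higher. The log2 difference of 3.59 became 4.99 without SHH 26 and 2.57 without SHH 28. Both the GFP SD and the SHH SD were the largest of the 10 genes.

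Haptoglobin and hemopexin, the scavengers of haemoglobin and haem, differed by similar small amounts. Hp gave 12.23, 12.40 and 12.32 in the GFP livers, against 12.46, 13.21 and 12.99 in the SHH livers. The groups did not overlap, but SHH 26 was only 0.06 above GFP 21. Means of 12.32 ± 0.08 (SD, n = 3) and 12.88 ± 0.38 (SD, n = 3) were 1.48-fold apart.

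Hpx was the most even of the 10 among GFP livers, at 12.20, 12.20 and 12.12. In SHH livers it was 12.41, 13.11 and 12.90, with every SHH liver above every GFP liver. Means were 12.17 ± 0.05 (SD, n = 3) and 12.81 ± 0.36 (SD, n = 3), 1.55-fold apart. The 250 bases before its start held a C/EBP match, TTGCTGAA, 200 bases before the start. The highest signal of any probe set was 13.66 to 13.72 on the 6 arrays, so Hp and Hpx in SHH 28 and SHH 31, and Itih4 in SHH 28 (12.75), came within 1 log2 unit of the top of the scale, where array signals tend to understate a difference. How much of the small size this accounts for was not tested.

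Ceruloplasmin, the copper-carrying ferroxidase of plasma, had the smallest difference. Cp gave 11.67, 11.92 and 11.65 in the GFP livers, against 12.06, 12.35 and 12.15 in the SHH livers. The groups did not overlap, and the spread was alike in both, with 11.75 ± 0.15 (SD, n = 3) and 12.19 ± 0.15 (SD, n = 3). It was the only gene of the 10 whose SD was not larger in SHH livers. SHH 26 also came closest to the other SHH livers here: its difference from the GFP mean was 51.7% of that of SHH 28, against 0.607% to 34.4% for the other 9.

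Lbp gave 8.42, 9.13 and 8.77 in the GFP livers, against 9.07, 10.60 and 9.58 in the SHH livers. SHH 26 lay below GFP 21, so the groups overlapped, and SHH 28 lay 1.02 above SHH 31. Means of 8.77 ± 0.35 (SD, n = 3) and 9.75 ± 0.78 (SD, n = 3) were 1.97-fold apart. The difference of 0.98 became 0.55 without SHH 28 and 1.32 without SHH 26.

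The inter-alpha-trypsin inhibitor heavy chain genes Itih4, Itih3 and Itih1 follow one another on chromosome 14. Of the 7 genes with a RefSeq sequence, Itih4 alone held the STAT3 palindrome TTCNNNGAA, and its sequence is shown for that reason. The 250 bases before its start are at chr14:30886226-30886475, plus strand, GRCm38.p6. Capitals mark the STAT3 match TTCCGAGAA, 51 bases before the start, and the NF-kB matches GGGTATGTCC and GGGGCTGGCC, 144 and 30 bases before it:
Itih4: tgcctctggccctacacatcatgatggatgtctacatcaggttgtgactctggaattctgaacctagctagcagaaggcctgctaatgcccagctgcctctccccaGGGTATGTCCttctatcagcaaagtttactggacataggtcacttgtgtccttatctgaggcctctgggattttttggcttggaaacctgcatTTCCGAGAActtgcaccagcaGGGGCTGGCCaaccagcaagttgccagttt

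Itih3 showed the clearest gap between the groups, with the lowest SHH liver 0.44 above the highest GFP liver. It gave 10.27, 10.41 and 10.09 in the GFP livers, against 10.85, 11.98 and 11.72 in the SHH livers. Means were 10.25 ± 0.16 (SD, n = 3) and 11.51 ± 0.59 (SD, n = 3), 2.40-fold apart. SHH 26 alone was 1.51-fold above the GFP mean.

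Itih4, whose product carries no bikunin chain, gave 11.72, 11.95 and 11.79 in the GFP livers, against 12.09, 12.75 and 12.45 in the SHH livers. The groups did not overlap. Means were 11.82 ± 0.12 (SD, n = 3) and 12.43 ± 0.33 (SD, n = 3), 1.53-fold apart. The neighbour Itih1, which is not among the 10, was 10.79 to 11.02 in GFP livers and 11.16 to 11.42 in SHH livers, 1.31-fold higher (limma, adjusted p = 0.576).

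The motifs were searched on both strands in the 250 bases before the start, and no matches overlapped. RefSeq sequences were matched by symbol for 7 of the 10 genes (Orm2, Orm3, Lcn2, Hpx, Cp, Itih3 and Itih4), with 2 start sites for Cp. TTGCNNAA was found in 5 of the 7 genes, and in 9.56% of 32851 such stretches over the genome. Orm2 and Orm3, 85.5% identical here, both count among the 5, so they are not separate cases. Cp had its C/EBP and NF-kB matches before only 1 of its 2 start sites. Genes were thus counted over any start site, while the genome shares are per stretch. TTCNNNGAA was found in 1 of 7 and in 7.02% of all stretches. The NF-kB motif, GGG and CC with 5 bases between them, was found in 3 of 7 (Lcn2, Cp and Itih4) and in 45.8% of all. CTGGGAA, the core of another IL-6 response element, was found in 0 of 7 and in 9.10% of all. A match is a match of letters only.

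**Figure D2:**
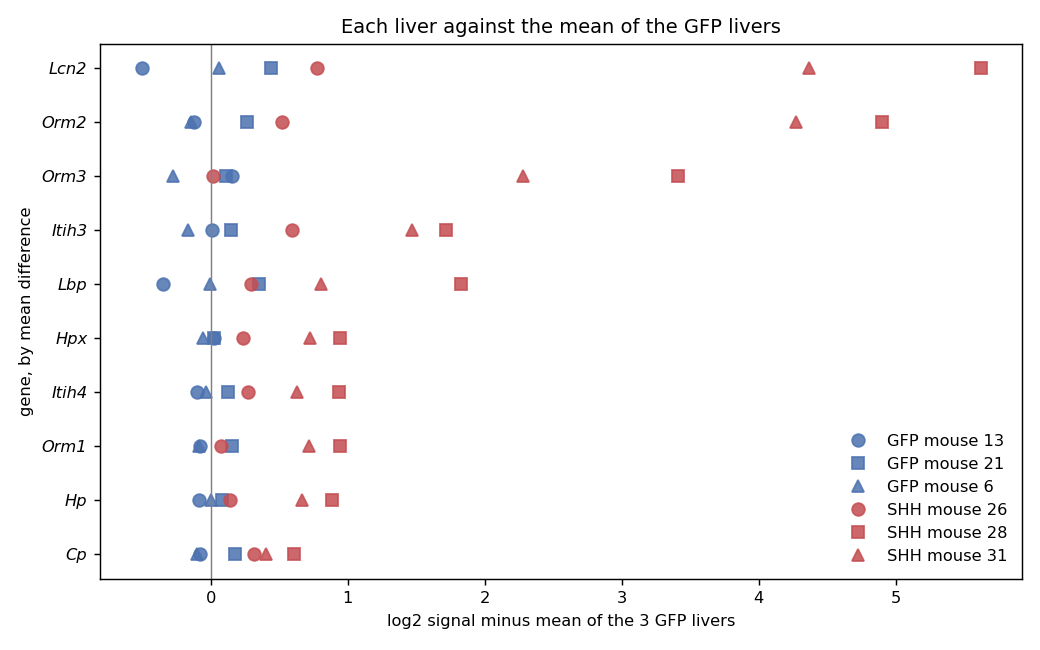
The log2 signal of each liver minus the mean of the 3 GFP livers (x axis, log2 units) is plotted for each of the 10 genes, ordered by mean difference; blue points are GFP livers and red points SHH livers, with a marker shape for each mouse. The SHH livers keep the order mouse 28, mouse 31, mouse 26 from right to left in all 10 genes, and Lcn2 and Orm2 in mice 28 and 31 lie between 4.27 and 5.62.

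The SHH livers kept the same order in 10 of the 10 genes: SHH 28 highest, SHH 31 next and SHH 26 lowest. Of all genes, 15.8% had this order. The median difference from the GFP mean over the 10 genes came to 0.28 for SHH 26, 1.33 for SHH 28 and 0.77 for SHH 31, against -0.03, -0.02 and -0.02 over all genes. SHH 31 came nearest to SHH 28 in Cp, Hpx and Hp, with gaps of 0.20, 0.21 and 0.22, and stood farthest below it in Lcn2, Orm3 and Lbp, with gaps of 1.25, 1.13 and 1.02. The SD was larger among SHH than GFP livers in 9 of the 10 genes, with medians of 0.52 and 0.15, where 55.8% of all genes had the larger SD in SHH livers.

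GFP livers also differed. GFP 21 was the highest GFP liver in 8 of the 10 genes (all but Orm3 and Hpx, where GFP 13 was), and it was the highest for 32.7% of all genes. Its median difference from the GFP mean over the 10 genes was 0.16, against -0.08 for GFP 13 and -0.07 for GFP 6. GFP 6 was the lowest for 6 of the 10 genes and GFP 13 for the other 4.

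**Figure D3:**
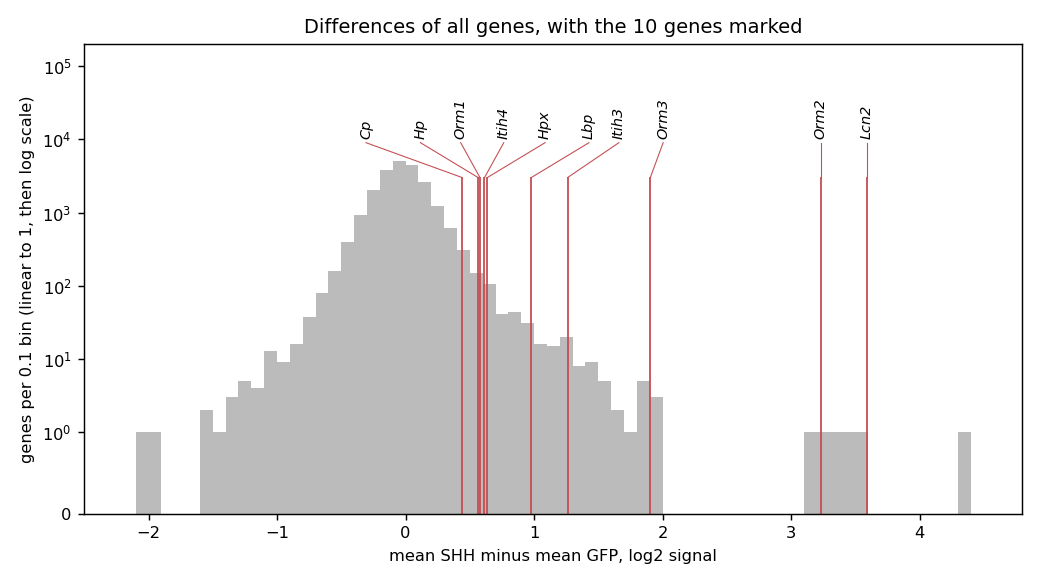
The histogram counts all 22180 genes by the difference of mean log2 signal, SHH minus GFP, in bins of 0.1 (y axis linear to 1 and logarithmic above); red lines mark the 10 genes. Cp, Hp, Orm1, Itih4 and Hpx (0.44 to 0.64) lie on the right flank of the main body, and Orm2 (3.23) and Lcn2 (3.59) lie among the few genes above 3.

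The genes most alike in profile were found by the root mean square (RMS) difference of log2 signals over the 6 livers, each profile centred on its own mean. Nearest to Lcn2 among genes outside the 10 were the serum amyloid gene Saa2 (RMS difference 0.25), and the metallothioneins Mt2 (0.52) and Mt1 (0.93), where the median over all such genes was 2.34. The same genes came nearest to Orm2, with RMS differences of 0.46, 0.57 and 0.75 and a median of 2.13. Profiles were not scaled, so a gene equal in all livers would score the spread of the profile itself. That spread was 2.32 for Lcn2 and 2.12 for Orm2, close to the medians, so nearness also reflects the size of a difference. Saa2 was 6.46, 7.996 and 6.95 in the GFP livers, against 7.61, 12.85 and 11.33 in the SHH livers. Saa2 thus had the same order of SHH livers, with GFP 21 again highest of the GFP livers. It was chosen for nearness over these same livers, so nothing is read from that likeness.

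Nearest to the mean profile of the 10 genes were Serpina7 (RMS difference 0.16), which encodes thyroxine-binding globulin, Lrg1 (0.20), which encodes a secreted leucine-rich glycoprotein, and the immunoglobulin segment Iglv1 (0.20). The median over all such genes was 0.91, close to the spread of that mean profile itself (0.89). Serpina7 was 8.46, 8.74 and 8.70 in the GFP livers, against 9.35, 10.80 and 10.25 in the SHH livers. Among the 10 themselves, the closest pair was Hp and Itih4 (0.062), followed by Orm1 and Hp (0.062) and Hp and Hpx (0.069). Lcn2 and Cp were farthest apart (2.10). These distances too reflect the size of the differences as well as the pattern. Iglv1 lay at 2.83 to 3.04 in GFP livers, below the lower quartile of each of those arrays (3.15 to 3.22), and has close relatives that can share its signal.

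**Figure D4:**
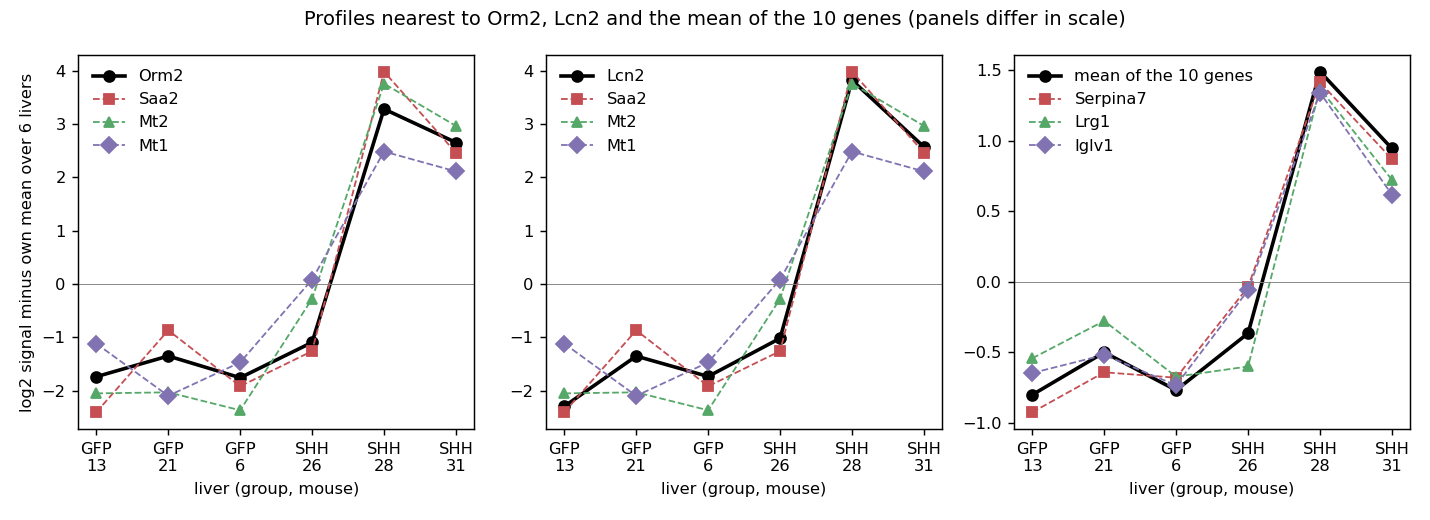
Each panel plots centred log2 signals over the 6 livers for Orm2 (left), Lcn2 (middle) or the mean of the 10 genes (right) in black, with the 3 nearest genes outside the 10 as dashed lines; lines only join the markers of a gene and the panels differ in scale. Saa2 and Mt2 run closest to Lcn2, with RMS differences of 0.25 and 0.52, and in each panel SHH mouse 28 is highest. The dashed genes were chosen for nearness over these livers, so a shared order is no separate result.

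Genes of the signals that reach the acute phase genes gave a mixed picture. For this list and all later ones, the background is the same 22180 genes. Of that background, 43.8% lay higher on average in the SHH group. At an unadjusted p under 0.05 (limma), it held 738 genes with a higher and 889 with a lower mean. The lists were chosen with earlier results known, so their counts were not tested against this background. Of 26 genes for cytokines, receptors and transducers, 19 had higher means in SHH livers, 0 passed in limma over all genes in either direction, 11 had an unadjusted p under 0.05, and the median difference was 0.12. The largest were Il1r1, the signalling IL-1 receptor (3.43-fold higher), Il1b (2.72-fold), the STAT3-induced inhibitor Socs3 (2.18-fold) and the oncostatin M receptor Osmr (1.997-fold), with adjusted p from 0.409 to 0.521 in limma. Not all of the 11 genes under the unadjusted threshold were higher. Among them, Lif, Lifr and Irak1 had lower means in SHH livers, differing by -0.32, -0.45 and -0.48. Il1r1 gave 7.87, 8.46 and 7.68 in the GFP livers, against 9.22, 10.82 and 9.31 in the SHH livers, and Socs3 gave 5.74, 5.29 and 5.43, against 6.04, 7.16 and 6.64. Both, like Osmr (5.89, 7.15 and 6.11), had the order of SHH livers seen in the 10 genes, as had 15.8% of all genes. In Il1r1, however, SHH 31 stood only slightly above SHH 26. Il1b (5.68, 5.96 and 6.92) was highest in SHH 31, and the IL-6 receptor gene Il6ra (8.83, 8.76 and 8.49) in SHH 26. Il6 itself lay between 1.89 and 2.47 in all 6 livers, under the lower quartiles of the arrays (3.13 to 3.22), and its difference of 0.10 says little.

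Of 16 measured transcription factors of these genes, 11 had higher means, 0 passed in limma over all genes, 4 had an unadjusted p under 0.05, and the median difference was 0.11. Stat3 gave 8.66, 9.35 and 8.93 in the GFP livers, against 9.40, 10.09 and 9.55 in the SHH livers, 1.63-fold higher (limma, adjusted p = 0.556). It too was highest in GFP 21 among GFP livers and in SHH 28 among SHH livers. Egr1 was 3.68-fold, Junb 1.56-fold and Nfkbiz 1.30-fold higher.

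Of 11 measured genes for receptors of these carriers and for the handling of their cargo, 6 had higher means, 0 passed in limma over all genes, 3 had an unadjusted p under 0.05, and the median difference was 0.03. Cd163, the macrophage receptor for haptoglobin with haemoglobin, gave 6.24, 5.91 and 6.63 in the GFP livers, against 6.85, 7.21 and 7.60 in the SHH livers, 1.95-fold higher (limma, adjusted p = 0.409). It was highest in SHH 31, unlike Hp. Hmox1, which breaks down haem, was 1.42-fold higher, while Lrp2, a receptor for lipocalin 2, and Blvrb, which reduces biliverdin, differed by -0.33 and -0.32.

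Carriers that usually fall in the acute phase showed no common direction. Of 10 measured, 5 had higher and 5 lower means, 0 passed in limma over all genes, 2 had an unadjusted p under 0.05, and the median difference was -0.07. Serpina7, already named, stood apart at 2.82-fold higher (limma, adjusted p = 0.409), while Shbg, Serpina6 and Rbp4 differed by -0.42, -0.33 and -0.19. Albumin (Alb) lay between 13.66 and 13.72 in all 6 livers, which was the highest signal on each array.

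Markers of other cells were set beside the 10 genes. In bulk tissue, more cells of a type and more RNA per cell cannot be told apart. Of 15 neutrophil markers, 14 had higher means in SHH livers, 5 had every SHH liver above every GFP liver, 0 passed in limma over all genes and 7 had an unadjusted p under 0.05. Over all genes, 43.8% had a higher mean and 5.26% had no overlap. Their mean log2 signal was 3.63 to 3.78 in GFP livers and 3.87, 4.72 and 4.61 in the SHH livers, so that SHH 26 was lowest of the SHH livers here as well. S100a9 was 3.59-fold, Retnlg 2.92-fold, S100a8 2.83-fold and Stfa2l1 2.16-fold higher. S100a8 and Stfa2l1 lay below the lower quartile of each GFP array (3.15 to 3.22), as did Retnlg in GFP 13 and GFP 21, so these folds are uncertain. Ly6g gave 2.25 to 3.23 in GFP and 2.74 to 3.41 in SHH livers. The part of neutrophil RNA in the Lcn2, Hp and orosomucoid signals was not tested.

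Macrophage and Kupffer cell markers had higher means for 13 of 13 genes (43.8% of all genes), 2 of them with no overlap (5.26% of all genes), and 0 passed in limma over all genes, with 8 at an unadjusted p under 0.05. Their mean log2 signal was 6.48, 6.49 and 7.33 in the GFP livers, against 7.06, 7.18 and 8.03 in the SHH livers. This order differs from that of the 10 genes, since SHH 31 was highest and GFP 6 lay above SHH 26 and SHH 28. The 11 measured hepatocyte markers were high in all livers, with means of 11.82 to 11.89 in GFP and 11.83 to 12.01 in SHH livers and a median difference of 0.03. Adipocyte, bile duct and stellate cell markers (6, 5 and 8 measured) had median differences of -0.09, -0.03 and 0.12, and in each of these 4 lists 0 passed in limma over all genes; at an unadjusted p under 0.05 there was 1 hepatocyte marker (Fgb, 1.24-fold higher) and 0 of the others.

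**Figure D5:**
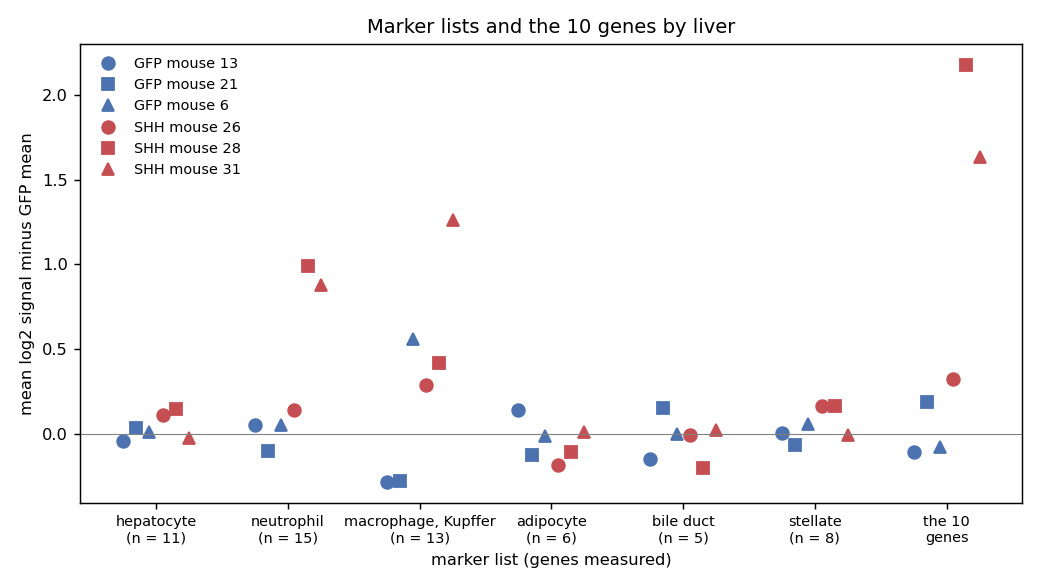
The mean log2 signal of each marker list, and of the 10 genes (right), is plotted per liver as the difference from the mean of the 3 GFP livers (y axis, log2 units); blue points are GFP livers, red points SHH livers, and n is the number of genes measured. Neutrophil markers and the 10 genes have SHH mice 28 and 31 above all other livers, macrophage markers have SHH mouse 31 highest, and hepatocyte markers differ little.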

How the data were processed

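Each liver was measured on 1 Affymetrix array. The deposited values are log2 signals made by the authors with RMA, per the submitters' processing notes; for its version, probe set level and annotation, nothing is given in the sources used here. The table held 41345 probe sets, of which 23521 named 1 gene, 1814 several and 16010 none. A gene was represented by its brightest probe set (mean of 6 arrays) among those naming no other gene, giving 22180 genes.

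The contrast of SHH minus GFP was fitted in R 4.3.3 with limma 3.58.1 (lmFit and two-sided eBayes) to the deposited log2 values, with no filter or covariate and a Benjamini-Hochberg threshold of 0.05 over all genes. A fold change is 2 raised to a difference of mean log2 signals. The number of arrays limits the precision. Each limma p-value sets a difference against the spread between these mice, taken as equal in both groups and moderated over all genes. The 10 genes, the gene lists and the motifs were chosen with earlier results of these data known. Named besides the 10 were up to 4 genes per list by size of difference and the 3 genes nearest in profile. A few others were named after their values were seen (Il6, Il6ra, Lif, Lifr, Irak1, Alb and Ly6g). Lists covered cytokine signals, transcription factors, clearance, negative acute phase carriers, other lipocalins, other inhibitor genes, copper handling, lipopolysaccharide relatives and markers of 6 cell types. Alternatives were other probe set rules, scalings, limma settings and each mouse left out. The limma fit alone was tested on simulated data, with the same normal spread in both groups.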

Additional observations from a re-analysis of the deposited data

How the results depend on the processing

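Each of the 10 genes has 1 probe set, so other probe set rules could not change their values. With equal array medians and a second quantile normalization, all 10 differences stayed positive and moved by less than their spread between mice. They also stayed positive with each mouse left out. With 3 livers per group, leaving 1 out cannot move a difference by more than that spread, so the sizes are given instead. Without SHH 28 the difference of Lbp fell from 0.98 to 0.55 and that of Orm3 from 1.90 to 1.15. Without SHH 26 they rose to 1.32 and 2.85. The count of 7 genes with no overlap stayed at 7 under both scalings. With a mouse left out it ranged from 7 to 10, but removing a liver can only keep or raise this count. The counts above every GFP liver ranged from 7 to 9 for SHH 26 and stayed at 10 for SHH 28 and SHH 31. These could not fall with a mouse left out either. The median difference of 0.81 ranged from 0.52 (without SHH 28) to 1.08 (without SHH 26). Limma called 0 genes over all genes in each other setting, but 46 (30 higher and 16 lower, from 0 to 46 over the mice left out) without SHH 26; the cause was not tested. Equal medians and the second quantile normalization moved the median of all genes from -0.03 to -0.00 and -0.01, and turned the split at an unadjusted p under 0.05 from 738 higher and 889 lower to 882 and 677, and to 887 and 768. No paired analysis was possible because the groups share no mouse number. Signals near the top of the array scale, and near or below its lower quartile, limit what can be read from several genes. These are Alb, Hp, Hpx, Itih4, Il6, Iglv1, S100a8, Stfa2l1, Retnlg, Vcan, Tnfaip6, Bpi and Bpifc.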

Other observations

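Of 11 other lipocalins of liver and plasma, 4 had higher and 7 lower means, 0 passed in limma over all genes, 2 had an unadjusted p under 0.05, and the median difference was -0.13. The odorant binding lipocalin gene Obp2a was the largest of these, with 6.02, 7.55 and 6.95 in the GFP livers, against 5.50, 6.62 and 5.50 in the SHH livers, a difference of -0.97. Its groups overlapped. Apom, Ambp and C8g differed by 0.33, 0.32 and -0.26.

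Of 7 other genes of the inter-alpha-trypsin inhibitor family and its hyaluronan partners, 6 had higher means, 0 passed in limma over all genes, 2 had an unadjusted p under 0.05, and the median difference was 0.32. Vcan, which encodes the hyaluronan-binding proteoglycan versican, was 1.502-fold higher and Tnfaip6, whose product transfers heavy chains to hyaluronan, 1.31-fold, both near or below the lower quartile of the arrays (3.13 to 3.22). Among 10 copper handling genes, 7 had higher means and 0 passed in limma over all genes, with 2 at an unadjusted p under 0.05. Those were Mt1 (8.72-fold higher) and Mt2 (19.7-fold), while Heph and Atox1 differed by 0.26 and -0.10 and the median was 0.03.

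Bpi, the relative of Lbp that lies next to it on chromosome 2, was 3.16 to 3.58 in GFP livers and 3.13 to 3.28 in SHH livers. Of 7 genes related to Lbp by family or as its receptor complex, 3 had higher means, 0 passed in limma over all genes and 0 had an unadjusted p under 0.05; Bpifc, Tlr4 and Ly96 differed by 0.17, 0.11 and -0.07, and the median was -0.00.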
